A study of Caenorhabditis elegans with 6 samples.

Results

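Antiviral RNA interference (RNAi) in Caenorhabditis elegans was followed here through 10 genes, chosen by name: dcr-1, rde-4, drh-1, rde-1, drh-3, rrf-1, rrf-2, ego-1, sid-1 and sid-5. They are 10 of the 22017 genes measured in whole animals at the last larval stage (L4). The comparison asks how pals-25(icb98) differs from WT when no pathogen is present. The pals-25(icb98) group had 3 libraries and the WT group 3, labelled as biological replicates. pals-25(icb98) is a gain-of-function allele in which a stop codon truncates the end of the PALS-25 protein. It was isolated by chemical mutagenesis as a line that turned on a chil-27 reporter in uninfected animals, and 1 mutant line was measured. Animals of both strains carried the same integrated transgene, icbIs4 (chil-27p::GFP with col-12p::mCherry), and were grown at 20°C on E. coli OP50.

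In this pathway double-stranded RNA, such as a replicating viral genome, is cut by the Dicer enzyme DCR-1 together with the double-stranded RNA-binding protein RDE-4 and the helicase DRH-1, a relative of mammalian RIG-I. The primary small interfering RNAs (siRNAs) are loaded into the Argonaute RDE-1, and RNA-dependent RNA polymerases then copy the target into abundant secondary siRNAs. SID proteins carry the silencing signal between cells. DRH-1 is also known as the sensor through which viral RNA induces the intracellular pathogen response.

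The libraries held 43614668 to 44425046 estimated counts in pals-25(icb98) and 40709626 to 47297002 in WT. Levels are given as CPM (counts scaled to equal library sizes), and where genes are compared with each other as TPM (transcripts scaled likewise), which corrects for transcript length. Any pair of pals-25(icb98) libraries differed over 2-fold at 29 to 53 of the 14015 genes that averaged 1 CPM or more. Among WT libraries, replicates 1 and 3 differed at 29 genes, but replicate 2 stood apart, at 2318 genes from replicate 1 and at 2052 from replicate 3. The markers of germline (14 genes), sperm (10), intestine (10), neurons (9), body wall muscle (5), pharynx (4) and epidermis (9) were all detected. The 14 germline markers summed to 2281 to 2449 CPM in pals-25(icb98), against 1885 CPM in WT replicate 2 and 2409 and 2422 CPM in the other WT libraries. The 10 sperm markers summed to 257 to 284 CPM in pals-25(icb98), against 129.5 CPM in WT replicate 2 and 267 and 271 CPM in the other WT libraries. The 4 pharyngeal markers summed to 820.4 to 889 CPM in pals-25(icb98), against 1180 CPM in WT replicate 2 and 793 and 834 CPM in the other WT libraries. The 9 epidermal markers summed to 382 to 492 CPM in pals-25(icb98) and to 697 to 901 CPM in WT. The 5 muscle markers summed to 13771 to 14639 CPM in pals-25(icb98) and to 13101 to 13465 CPM in WT. At an edgeR adjusted p under 0.05, 3 epidermal and 2 germline markers were called lower, against 10.4% of all genes tested. Called higher were 1 germline, 1 intestinal and 1 muscle marker, against 9.81% of all genes tested. No sperm, neuronal or pharyngeal marker was called. In whole animals, fewer cells of a type and less RNA per cell cannot be told apart, and the part of cell type proportions in the results below was not tested. The mutated gene pals-25 had 4.08, 4.24 and 3.78 CPM in pals-25(icb98), against 1.87, 2.48 and 1.77 CPM in WT (log2 fold change 0.98, SE 0.17, edgeR adjusted p = 0.0148). Its operon partner pals-22 had 7.76, 8.12 and 8.39 CPM in pals-25(icb98), against 3.75, 5.001 and 3.56 CPM in WT (log2 fold change 0.98, SE 0.16, edgeR adjusted p = 0.0124).

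Of the 10 genes, 4 were higher in pals-25(icb98) and 0 were lower at a Benjamini-Hochberg adjusted p under 0.05 in edgeR's quasi-likelihood test over 16171 genes. At an unadjusted p under 0.05, 5 of the 10 were higher and 0 lower, against 2637 higher and 3192 lower of the 16171 genes tested. At the adjusted threshold, 9.81% of all genes tested were called higher and 10.4% lower. These totals of 1587 and 1684 genes depended on the libraries, and ranged from 681 and 330 without pals-25(icb98) replicate 1 to 3167 and 2971 without WT replicate 2, while the 4 calls among the 10 genes held with any library left out. rrf-2 showed the largest change of the 10, followed by sid-5, rde-1 and drh-1, whereas dcr-1, rde-4, drh-3, rrf-1, ego-1 and sid-1 were not called. At the Dicer step drh-1 was called, and rde-1 was called as the only Argonaute among the 10. Of the 10, rrf-2 alone was called among those grouped here under secondary siRNA synthesis, and sid-5 alone among those of systemic RNAi. The Dicer enzyme itself and its cofactor RDE-4 were not among the calls. The median log2 fold change was 0.18 over the 10 genes and 0.01 over all genes tested. The 10 genes were chosen with earlier results of these data known, so setting them beside all genes is descriptive. All 10 passed the filter on low counts in both groups, with at least 713 counts in each pals-25(icb98) library and at least 149 in each WT library. In 5 of the 10 genes every pals-25(icb98) library lay above every WT library, which held for 24.5% of all genes tested. In 1 gene, dcr-1, every pals-25(icb98) library lay below every WT library, which held for 24.7% of all genes. None of the 10 genes overlaps another annotated gene on either strand. The 4 genes called higher lie on chromosomes I, X, V and IV.

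**Figure D1:**
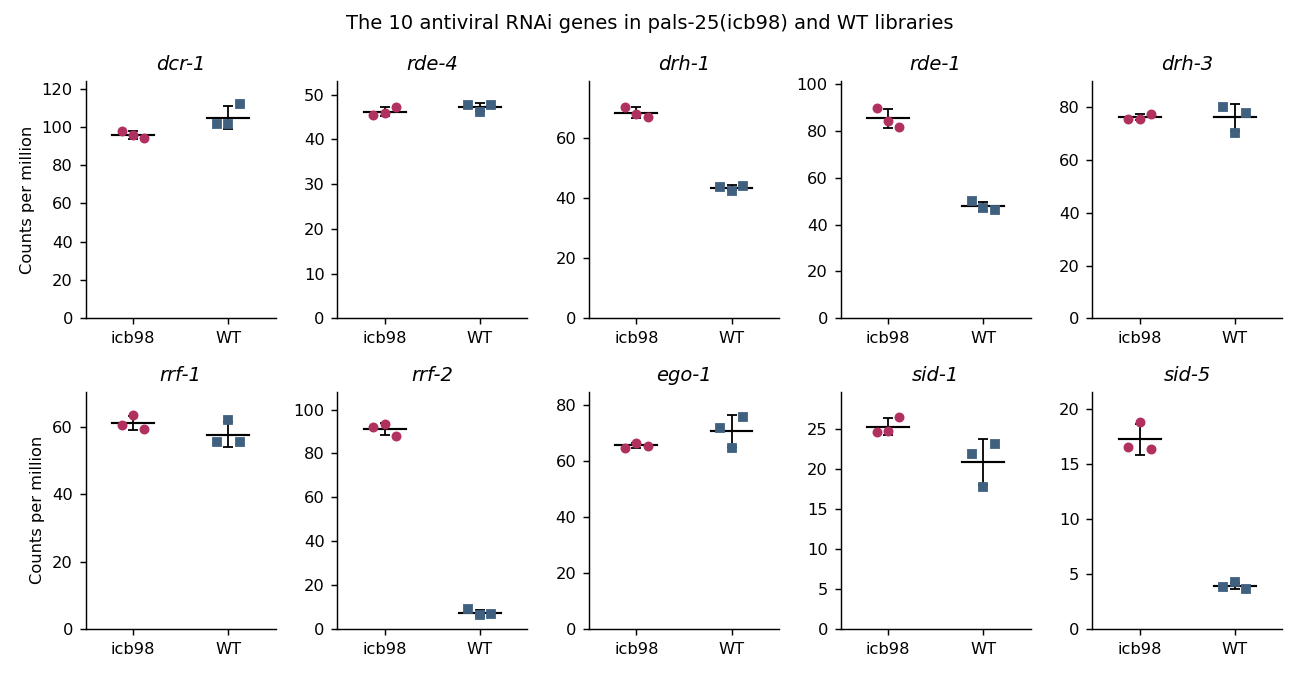
Level of each of the 10 genes in CPM (vertical axis, from 0), with pals-25(icb98) libraries (circles, labelled icb98) left of WT libraries (squares). Horizontal lines are means and bars are the SD of 3 libraries. For rrf-2, sid-5, rde-1, drh-1 and sid-1 all 3 pals-25(icb98) libraries lay above all 3 WT libraries, and for dcr-1 below them.

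The genes that act at the Dicer step came first in the pathway and divided into one that was called and a pair that was not. dcr-1 (K12H4.8, chromosome III 8071967 to 8080281 in WBcel235, minus strand) encodes the only Dicer of the worm. It had 97.9, 95.6 and 94.0 CPM in pals-25(icb98), against 101.2, 101.3 and 111.8 CPM in WT. The groups did not overlap, but the difference was small (log2 fold change -0.13, SE 0.05) and was not called (edgeR adjusted p = 0.151). Without WT replicate 2 the log2 fold change was -0.16 and the gene was called lower (edgeR adjusted p = 0.0405). rde-4 (T20G5.11, chromosome III 10217302 to 10218646, minus strand), whose protein binds long double-stranded RNA and hands it to Dicer, had 45.5, 45.8 and 47.3 CPM in pals-25(icb98) and 47.8, 46.2 and 47.6 CPM in WT. The groups overlapped (log2 fold change -0.03, SE 0.05, 95% interval -0.14 to 0.08, edgeR adjusted p = 0.645).

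drh-1 (F15B10.2, chromosome IV 6607376 to 6613353, minus strand), the RIG-I-like helicase, was higher in the mutant. It had 70.5, 68.0 and 67.2 CPM in pals-25(icb98), against 43.7, 42.5 and 44.1 CPM in WT. The mean was 68.6 ± 1.74 CPM in pals-25(icb98) and 43.5 ± 0.831 CPM in WT (SD, n = 3 each), a 1.58-fold difference with a 95% interval of 1.46 to 1.70 (log2 fold change 0.66, SE 0.05, edgeR adjusted p = 0.000525). The gap between the groups was many times the spread within either, and the call held with any library left out, where the adjusted p was at most 0.00606.

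The drh-1 total is made of a pair of annotated transcripts, and the estimates placed the whole increase on the shorter one. The full-length transcript drh-1a (F15B10.2a) has 20 exons and 1037 codons. drh-1b (F15B10.2b) has 15 exons and 779 codons and lacks the first 5 exons, so that its reading frame is 258 codons shorter.

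drh-1b had 13.6, 14.02 and 12.1 TPM in pals-25(icb98), against 0.90, 1.09 and 1.88 TPM in WT. drh-1a had 9.02, 8.58 and 9.50 TPM in pals-25(icb98), against 11.5, 11.2 and 10.8 TPM in WT. The short transcript was therefore the minor one in every WT library and the major one in every pals-25(icb98) library. It made up 59.4 ± 3.07% of drh-1 TPM in pals-25(icb98) and 10.3 ± 4.01% in WT (SD, n = 3 each). Mean TPM differed by 11.9 for drh-1b, by -2.13 for drh-1a and by 9.81 for their sum (pals-25(icb98) minus WT).

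Tested as transcripts, drh-1b was higher in pals-25(icb98) (log2 fold change 3.37, SE 0.32, edgeR adjusted p = 0.00722). It stayed called with any library left out, but only just without pals-25(icb98) replicate 1 (edgeR adjusted p = 0.0496). With a block for replicate number in edgeR, drh-1b was not called (log2 fold change 3.44, adjusted p = 0.0682). drh-1a was not called (log2 fold change -0.29, SE 0.07, edgeR adjusted p = 0.0828), although DESeq2 called drh-1a lower (adjusted p = 0.00328). A test of transcript share within genes, edgeR's diffSpliceDGE, was added after these values were seen. It called the share of drh-1b (relative log2 fold change 1.88, adjusted p = 0.000482) but not that of drh-1a (relative log2 fold change -0.66, adjusted p = 0.1002), and of all transcripts whose share could be tested 0.56% were called. In this share test drh-1b had the 19th smallest p of 13217 transcripts from 4729 genes, and its share stayed called with any library left out (diffSpliceDGE adjusted p up to 0.00803). The log2 ratio of drh-1b to drh-1a averaged 0.55 ± 0.18 in pals-25(icb98) and -3.19 ± 0.60 in WT (SD, n = 3 each), a difference of 3.73 with no overlap (exact permutation test, two-sided, p = 0.1, the smallest that 3 against 3 libraries can give). A test of this ratio was not among the planned tests either, and groups that do not overlap always give this p.

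The drh-1b of the WBcel235 annotation lies wholly inside drh-1a, with 0 of its 2510 bases outside it. The deposited tables list drh-1b at 2521 bases, so the model that was quantified differs slightly from the annotated one. On the annotated model, the drh-1b estimate would rest on read density being higher over exons 6 to 20 than over the 778 bases of exons 1 to 5, and not on reads of its own. Read coverage along the gene was not analysed here, so a shift in coverage for another reason and a true short transcript cannot be told apart. With the estimated transcript lengths taken into account, the log2 fold change of drh-1 was 0.83 (edgeR with an effective length offset), against 0.66 on counts.

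**Figure D2:**
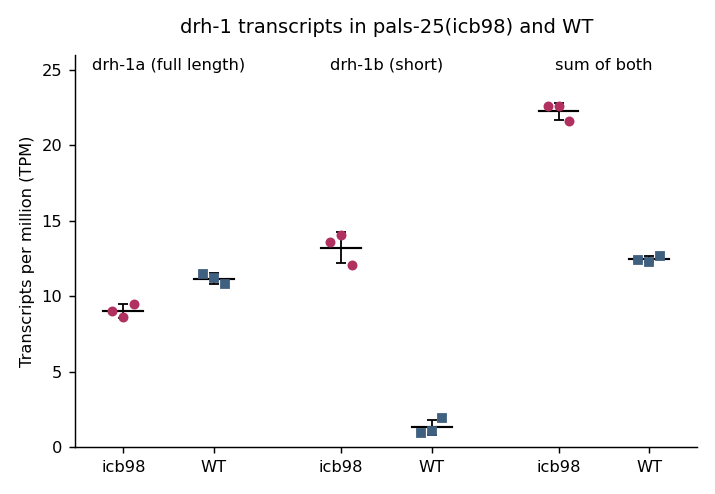
TPM of drh-1a (full length), drh-1b (short) and their sum (vertical axis, from 0), in pals-25(icb98) libraries (circles, labelled icb98) and WT libraries (squares); lines are means and bars the SD of 3 libraries. drh-1b lay at 12.1 to 14.02 TPM in pals-25(icb98) and at 0.90 to 1.88 TPM in WT, whereas drh-1a was lower in each pals-25(icb98) library than in any WT library.

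rde-1 (K08H10.7, chromosome V 9987916 to 9991642, minus strand), the Argonaute that receives primary siRNAs from Dicer, was higher in pals-25(icb98). It had 90.0, 84.5 and 81.8 CPM in pals-25(icb98), against 50.1, 47.1 and 46.5 CPM in WT. The mean was 85.4 ± 4.20 CPM in pals-25(icb98) and 47.9 ± 1.95 CPM in WT (SD, n = 3 each), a 1.78-fold difference with a 95% interval of 1.62 to 1.97 (log2 fold change 0.83, SE 0.06, edgeR adjusted p = 0.000539). A single transcript is listed for the gene, so its count is not divided among isoforms. With any library left out the adjusted p was at most 0.00581.

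Among those of the 10 genes grouped here under secondary siRNA synthesis, rrf-2 alone was called. rrf-2 (M01G12.12, chromosome I 12098664 to 12106112, minus strand) encodes an RNA-dependent RNA polymerase whose role in silencing is less well defined than that of its relatives. It had 92.3, 93.2 and 88.2 CPM in pals-25(icb98), against 8.94, 6.36 and 6.97 CPM in WT. The lowest mutant library lay far above the highest WT library. The mean was 91.2 ± 2.70 CPM in pals-25(icb98) and 7.43 ± 1.35 CPM in WT (SD, n = 3 each), a 12.3-fold difference with a 95% interval of 9.71 to 15.5 (log2 fold change 3.62, SE 0.14, edgeR adjusted p = 6.64e-05). Ordered from the highest log2 fold change to the lowest, rrf-2 was 212th of the 16171 genes tested.

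rrf-1 (F26A3.8, chromosome I 7643431 to 7649777, minus strand), the polymerase that makes secondary siRNAs in somatic tissues, had 60.6, 63.5 and 59.3 CPM in pals-25(icb98) and 55.6, 62.0 and 55.5 CPM in WT. The groups overlapped (log2 fold change 0.08, SE 0.06, 95% interval -0.07 to 0.24, edgeR adjusted p = 0.383). ego-1 (F26A3.3, chromosome I 7650341 to 7656338, minus strand), its counterpart in the germline, had 64.7, 66.5 and 65.3 CPM in pals-25(icb98) and 71.8, 64.6 and 75.7 CPM in WT. ego-1 was not called (log2 fold change -0.11, SE 0.07, edgeR adjusted p = 0.289). Without WT replicate 2 its log2 fold change was -0.17 and, like dcr-1, it was called lower (edgeR adjusted p = 0.0176). rrf-1 and ego-1 lie on the same strand with 563 bases between them. drh-3 (D2005.5, chromosome I 7820831 to 7826378, plus strand), a helicase related to DRH-1 that the polymerases need to make secondary siRNAs, had 75.6, 75.5 and 77.5 CPM in pals-25(icb98) and 80.1, 70.4 and 78.0 CPM in WT. Its log2 fold change was 0.00 (SE 0.06, 95% interval -0.15 to 0.15, edgeR adjusted p = 0.999).

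Per transcript length, rrf-2 was the most abundant of the worm's 4 RNA-dependent RNA polymerase mRNAs in the mutant, and the rarest of them in WT. It had 16.8, 17.6 and 16.4 TPM in pals-25(icb98), against 1.67, 1.204 and 1.29 TPM in WT. The other polymerases lay at 13.7 ± 1.38 TPM in pals-25(icb98) and 12.8 ± 0.600 TPM in WT for rrf-1 (SD, n = 3 each). ego-1 had 11.3 ± 0.334 TPM in pals-25(icb98) and 12.3 ± 0.850 TPM in WT, and rrf-3, which makes endogenous siRNAs, 8.42 ± 0.392 TPM in pals-25(icb98) and 8.14 ± 0.321 TPM in WT (SD, n = 3 each). The 4 genes summed to 50.3 ± 2.46 TPM in pals-25(icb98) and 34.6 ± 0.630 TPM in WT (SD, n = 3 each). rrf-2 held 33.7 ± 1.23% of that sum in pals-25(icb98) and 4.02 ± 0.752% in WT (SD, n = 3 each). The log2 ratio of rrf-2 to the other polymerases was 3.62 higher in pals-25(icb98), with no overlap between groups (exact permutation test, two-sided, p = 0.1, the smallest possible here).

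**Figure D3:**
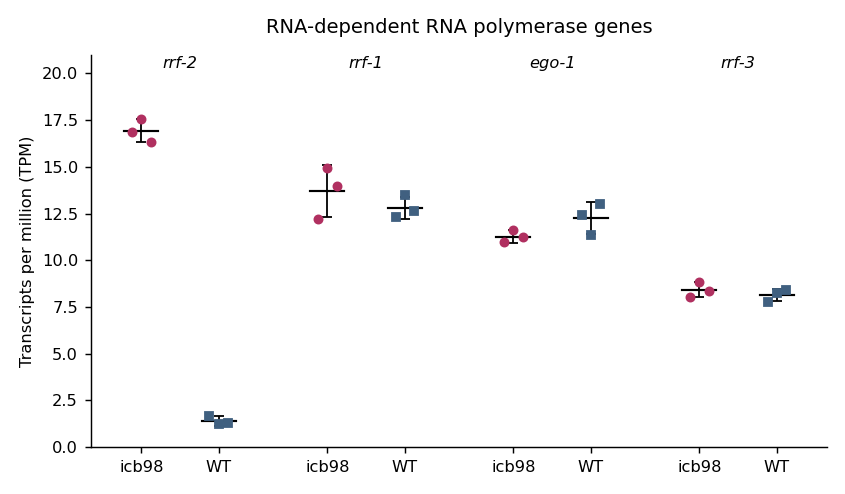
TPM of the 4 RNA-dependent RNA polymerase genes (vertical axis, from 0), with pals-25(icb98) libraries (circles, labelled icb98) left of WT libraries (squares); lines are means and bars the SD of 3 libraries. rrf-2 lay at 16.4 to 17.6 TPM in pals-25(icb98) and at 1.204 to 1.67 TPM in WT, while the libraries of rrf-1, ego-1 and rrf-3 overlapped between groups.

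Of the systemic RNAi genes among the 10, sid-5 was called and sid-1 was not. sid-5 (F14B8.2, chromosome X 6904721 to 6905849, plus strand) encodes a small protein of endosomes, of 67 codons, that is needed for silencing signals to pass between cells. It had 16.6, 18.9 and 16.3 CPM in pals-25(icb98), against 3.85, 4.25 and 3.66 CPM in WT. The groups were far apart for their spread. The mean was 17.3 ± 1.39 CPM in pals-25(icb98) and 3.92 ± 0.301 CPM in WT (SD, n = 3 each), a 4.41-fold difference with a 95% interval of 3.62 to 5.37 (log2 fold change 2.14, SE 0.12, edgeR adjusted p = 0.0002). sid-1 (C04F5.1, chromosome V 5119970 to 5126916, plus strand) encodes the channel through which double-stranded RNA enters cells. It had 24.6, 24.8 and 26.6 CPM in pals-25(icb98), against 21.9, 17.7 and 23.1 CPM in WT. Every pals-25(icb98) library lay above every WT library, but the difference was not called (log2 fold change 0.28, SE 0.11, edgeR adjusted p = 0.136) with all libraries or with any one left out (adjusted p 0.0751 to 0.330).

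**Figure D4:**
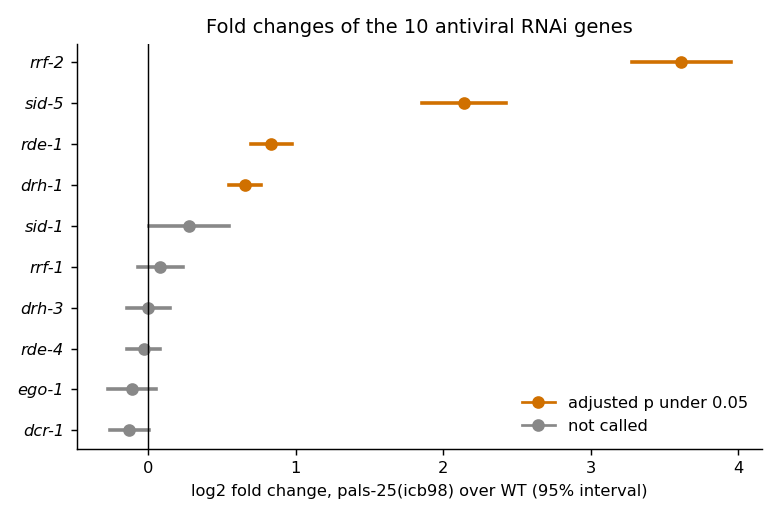
Log2 fold change of the 10 genes, pals-25(icb98) over WT (horizontal axis), with 95% intervals from edgeR as lines; orange marks genes with an adjusted p under 0.05 and grey those not called. rrf-2 (3.62) and sid-5 (2.14) stand furthest from 0, then rde-1 (0.83) and drh-1 (0.66), and the other 6 genes lie between -0.13 and 0.28.

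Compared per transcript length, the order of the 10 genes differed between the groups. In pals-25(icb98), sid-5 stood highest at 42.5 TPM, followed by rde-4 (38.5), rde-1 (24.3), drh-1 (22.3), drh-3 (19.4), rrf-2 (16.9), dcr-1 (14.5), rrf-1 (13.7), ego-1 (11.3) and sid-1 (8.78 TPM). In WT, rde-4 stood highest at 39.8 TPM, followed by drh-3 (19.6), dcr-1 (16.02), rde-1 (13.7), rrf-1 (12.8), drh-1 (12.5), ego-1 (12.3), sid-5 (9.78), sid-1 (7.31) and rrf-2 (1.39 TPM). Neighbours in this order overlapped over libraries only for dcr-1 and rrf-1 in pals-25(icb98), and for rde-1, rrf-1, drh-1 and ego-1 in WT. sid-5 had the fewest counts of the 10 in each group, but as the shortest message it stood highest per length in pals-25(icb98) and eighth in WT.

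The 10 genes are listed with 15 transcripts in all, of which 15 could be tested, 4 were higher in pals-25(icb98) and 0 lower. Over all transcripts tested, 3.68% were higher and 2.43% lower. Apart from drh-1b, those 4 were the only listed transcripts of rrf-2, sid-5 and rde-1. For the other genes with more than 1 transcript the division was unstable. The transcript C04F5.1.1 of sid-1 took 84.1, 7.28 and 55.1% of that gene's TPM in pals-25(icb98), and 46.5, 22.03 and 60.1% in WT. The split of sid-1 therefore varied more among replicates of a group than between the groups, and neither transcript was called. The second transcript of dcr-1, K12H4.8.2, took 4.17, 14.8 and 12.9% in pals-25(icb98), against 4.51 and 5.25% in WT replicates 1 and 3 and 0 counts in WT replicate 2, and was not called either.

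A wider list of 56 small RNA pathway genes was read beside the 10, of which 55 were measured and tested. In pals-25(icb98) 6 of them were higher and 2 lower, and the median log2 fold change was 0.08, against 0.01 over all genes tested. Read against the 9.81% and 10.4% called among all genes, 6 and 2 of 55 do not set the list apart. The clearest was ekl-1, whose Tudor domain protein works with DRH-3 and the polymerases. It had 108.5, 111.6 and 106.6 CPM in pals-25(icb98), against 58.2, 55.5 and 60.1 CPM in WT (log2 fold change 0.91, SE 0.05, edgeR adjusted p = 0.000188), and it was the only one of the 8 that kept its call with any library left out.

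Among the 20 Argonautes of that list, ppw-1 and sago-2 were higher and sago-1 and wago-11 lower. ppw-1, a secondary Argonaute of the germline, had 283.8, 260.5 and 281.9 CPM in pals-25(icb98), against 185.3, 144.4 and 191.3 CPM in WT (log2 fold change 0.67, SE 0.11, edgeR adjusted p = 0.0143). sago-2 had 40.4, 43.8 and 41.9 CPM in pals-25(icb98) and 28.5, 29.5 and 35.5 CPM in WT (log2 fold change 0.43, SE 0.10, edgeR adjusted p = 0.0283). sago-1, which like sago-2 binds secondary siRNAs, had 60.3, 60.6 and 58.8 CPM in pals-25(icb98), against 65.5, 71.1 and 68.0 CPM in WT (log2 fold change -0.19, SE 0.05, edgeR adjusted p = 0.0442). The difference for sago-1 was small, and that for sago-2 ran the other way. wago-11 was scarce, at 0.955, 1.19 and 0.995 CPM in pals-25(icb98) and 1.66, 1.89 and 1.74 CPM in WT (log2 fold change -0.75, SE 0.17, edgeR adjusted p = 0.0301).

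The remaining 3 calls were outside the Argonautes. Of 15 mutator and amplification genes, rde-12, a helicase that brings polymerases to targeted mRNAs, had 278.9, 267.7 and 258.6 CPM in pals-25(icb98), against 224.7, 225.8 and 224.6 CPM in WT (log2 fold change 0.25, SE 0.04, edgeR adjusted p = 0.0132). rsd-2, needed for the response to low doses of double-stranded RNA, had 81.0, 80.6 and 80.2 CPM in pals-25(icb98), against 70.1, 71.5 and 69.4 CPM in WT (log2 fold change 0.20, SE 0.04, edgeR adjusted p = 0.0214). Of 4 further systemic RNAi genes, sid-2, which takes up double-stranded RNA from the gut lumen, had 26.4, 26.8 and 29.1 CPM in pals-25(icb98), against 21.1, 18.3 and 21.4 CPM in WT (log2 fold change 0.44, SE 0.09, edgeR adjusted p = 0.0207). Calls in this wider list depended on the libraries used. Without WT replicate 2 there were 10 higher and 7 lower, without WT replicate 3 there were 3 and 0, without WT replicate 1 there were 4 and 0, and without pals-25(icb98) replicates 1, 2 and 3 there were 1, 2 and 2 higher and 0 lower each time.

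Among those not called, drh-2, the third RIG-I-like helicase gene of the worm and annotated as a pseudogene by RefSeq, lies 564 bases from drh-1. It had 39.7, 44.8 and 47.9 CPM in pals-25(icb98), against 50.8, 62.3 and 54.4 CPM in WT (log2 fold change -0.34, SE 0.10, edgeR adjusted p = 0.0675). Its values thus lay below WT where those of drh-1 lay above. Any reads that fit both genes are divided between them by the model that estimated the counts. Such reads were not counted, so the estimates for drh-1 and drh-2 may not be independent. rrf-3 (log2 fold change 0.06, SE 0.05, edgeR adjusted p = 0.447) and chup-1, a relative of sid-1 also called tag-130 (0.22, SE 0.11, edgeR adjusted p = 0.211), were not called. The largest log2 fold changes among those not called were -0.75 for wago-5, which had at most 0.568 CPM in any library, and -0.54 for nrde-3, the Argonaute of somatic nuclear RNAi, at 13.4, 13.7 and 11.8 CPM in pals-25(icb98) and 14.9, 26.1 and 15.5 CPM in WT. None of 7 Dicer complex and ERI genes, 3 nuclear RNAi genes or 2 microRNA processing genes was called.

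**Figure D5:**
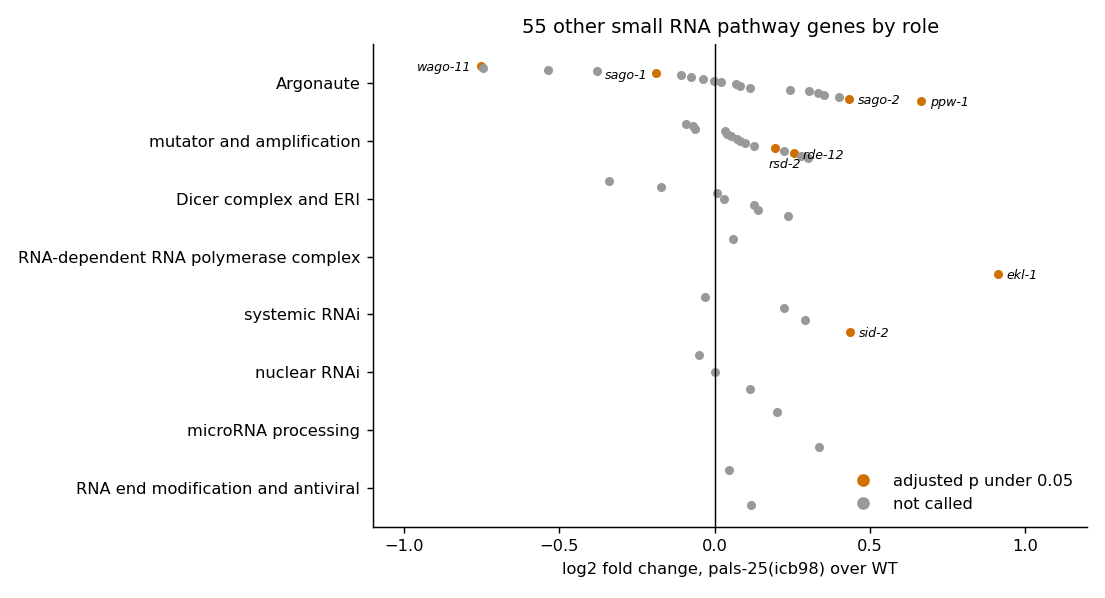
Log2 fold change, pals-25(icb98) over WT (horizontal axis), of 55 further small RNA pathway genes grouped by role (rows; height within a row only separates the points); orange points have an edgeR adjusted p under 0.05 and are named. ekl-1 stands furthest to the right at 0.91 and wago-11 furthest to the left among the called genes at -0.75.

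For rrf-2, sid-5 and drh-1, profiles over the 6 libraries (log2 CPM, each gene centred on its own mean) were compared with those of 13951 genes outside both lists. As the groups differ for all 3, genes with a change of similar size are close by construction, and the likeness is given as a description over 6 libraries. Closest to rrf-2 were B0507.9, T05E12.3 and T26F2.2, at root mean square differences of 0.13, 0.16 and 0.17 in log2 units, whose log2 fold changes were 3.51, 3.41 and 3.94. Closest to sid-5 were F42C5.4, zip-1 and fbxa-36, at differences of 0.10, 0.11 and 0.14, with log2 fold changes of 2.19, 1.94 and 2.08. Closest to drh-1 were atg-3, F29G6.1 and tre-3, at differences of 0.03, 0.04 and 0.04, with log2 fold changes of 0.65, 0.65 and 0.61.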

How the data were processed

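RNA from whole L4 animals, 3 pals-25(icb98) and 3 WT libraries, was sequenced, and abundance was estimated by the authors with kallisto (WormBase WS235 transcripts). The tables they deposited give each transcript an estimated count, a length and an effective length. Per the labels and the study's methods, sleuth followed, which needs repeated kallisto estimates and was not run here. Not given in the sources used here: tool versions, read length and strandedness. Groups came from the genotype labels. The 10 genes, gene lists and tests were chosen with earlier results of these data known.

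The 35862 transcripts were summed to 22017 genes by sequence name, and 21846 were matched to the Ensembl WBcel235 annotation. Gene sums were rounded and tested with edgeR 4.0.16 in R 4.3.3 (quasi-likelihood F-test, robust, TMM, filterByExpr with a minimum count of 10, no block), with Benjamini-Hochberg adjustment over all genes and a threshold of 0.05. CPM are TMM-scaled. TPM were computed from counts and effective lengths. Differences between library pairs used a pseudocount of 0.1 CPM. The edgeR p-values weigh each difference between groups against the spread between these libraries, estimated with help from all genes tested. Reads that fit several transcripts or near-identical gene copies are divided by kallisto's model, so transcript values are less certain than gene sums. Alternatives were DESeq2 1.42.0, limma-voom and limma-trend (limma 3.58.1, log2(TPM + 1)), other scalings and filters, effective lengths, a replicate block and each library left out. The fit was tested on simulated data.

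Named were all 10 genes; of the wider list every called gene, drh-2, rrf-3, chup-1 and the 2 uncalled genes of largest change; 3 nearest profiles each for rrf-2, sid-5 and drh-1; and pals-25 and pals-22. The wider list gene cde-1 was not matched.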

Additional observations from a re-analysis of the deposited data

How the results depend on the processing

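rrf-2, sid-5, rde-1 and drh-1 were called higher under all 16 alternatives, with log2 fold changes of 2.91 to 3.77, 2.01 to 2.20, 0.78 to 0.87 and 0.63 to 0.83. The number of the 10 genes called higher was 4 with each library left out, and the number called lower ranged from 0 to 2, the 2 being dcr-1 and ego-1 without WT replicate 2. Counts in the wider list moved more: DESeq2 called 11 higher and 4 lower, 1 was lower with RLE size factors, upper quartile scaling, no filter on low counts and limma-trend, and with 1 library left out 1 to 10 were higher and 0 to 7 lower. Over all genes 1587 were higher and 1684 lower, and with 1 library left out 681 to 3167 were higher and 330 to 2971 lower, the bottom of each range without pals-25(icb98) replicate 1 and the top without WT replicate 2. Both counts also moved over 1.5-fold without WT replicate 3 and without pals-25(icb98) replicates 2 or 3, as did the count of lower genes without WT replicate 1. DESeq2 called 1 of the 15 transcripts lower, drh-1a, against 0 in edgeR. Between 3 and 4 were called higher under the alternatives. The log2 ratio of rrf-2 to the other polymerases differed by 3.52 to 3.77 with a library left out. Replicate numbers are shared by the groups, and whether they pair the libraries was not settled. Same-numbered deviations correlated at 0.076, 0.233 and 0.123, and differently numbered ones at -0.225 to 0.143. pals-25(icb98) replicates 1 and 2 correlated best with the WT replicate of their own number, and replicate 3 with WT replicate 1 (0.143). With a replicate block, 4 of the 10 genes were higher, 0 of the wider list and 997 of all genes were lower, and drh-1b was no longer called (log2 fold change 3.44, adjusted p = 0.0682). The causes of these movements were not tested. A fit without a library also holds fewer samples. Transcript estimates, the low counts of sid-5 in WT (149 to 183) and the spread of WT replicate 2 limit the precision.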
